A study of Homo sapiens with 12 samples.

Results

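The messenger RNAs described here encode FMRP, its relatives and proteins that bind it: FMR1, FXR1, FXR2, CYFIP1, CYFIP2, NUFIP1, NUFIP2, CAPRIN1, G3BP1 and G3BP2. These 10 genes were chosen by symbol from the 59087 features of the count table, and all 10 passed the filter on low counts. RNA came from the neuroblastoma cell line SH-SY5Y, long established from human cells, either wild type or carrying an FMR1 knockout. Both genotypes were kept for 2 weeks in SILAC medium with 10% dialyzed fetal bovine serum. The light medium held ordinary lysine and arginine and the heavy medium their carbon-13 and nitrogen-15 forms, as is done to tell proteins apart in a mass spectrometer; RNA alone was used here. Each of the 4 groups held 3 libraries, 12 in all. Each knockout library is 1 of 3 lines that were generated separately; lines 1, 2 and 3 were each sequenced once per medium. Whether a line is a single clone is not said. Nothing in the labels says that the wild-type libraries came from separate cultures, so p-values measure the spread between these libraries, which may be technical. Loss of FMR1 and the derivation of a line cannot be told apart in any comparison of knockout with wild type.

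FMRP is an RNA-binding protein that associates with polyribosomes and represses the translation of many neuronal mRNAs, and silencing of its gene causes fragile X syndrome. FXR1 and FXR2 are its autosomal paralogs and bind it. CYFIP1 and CYFIP2 are cytoplasmic FMRP interactors that also sit in the WAVE regulatory complex, which controls actin branching, and CYFIP1 can hold the cap-binding protein eIF4E. NUFIP1 is a nuclear FMRP interactor that helps to assemble box C/D small nucleolar ribonucleoproteins, and NUFIP2 is an FMRP interactor found with ribosomes and in stress granules. Caprin-1 binds FMRP and the paralogs G3BP1 and G3BP2, which nucleate stress granules.

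The sequences just upstream of the transcription start are shown for FMR1, for CYFIP1 and for the granule genes G3BP1 and CAPRIN1 below. FMR1 is the targeted gene, CYFIP1 the other member called over both media, G3BP1 the member called among the lines, and CAPRIN1 encodes its binding partner. They come from RefSeq on GRCh38.p14 and are written 5′ to 3′ on the gene's own strand. Of each window of 250 bases, the longest stretch outside exons of protein-coding genes is printed, so other such bases may be left out. Capitals mark the matches to 5 motifs on either strand. The motifs were the palindrome bound by NRF1 (GCGCATGCGC), the E-box CACGTG, the GC box GGGCGG, the CCAAT box and the ETS core CCGGAA. The FMR1 stretch is chrX:147911669-147911918 on the plus strand, that of CYFIP1 chr15:22980899-22981008 on the minus strand, that of G3BP1 chr5:151771704-151771909 on the plus strand and that of CAPRIN1 chr11:34051481-34051682 on the plus strand.
FMR1: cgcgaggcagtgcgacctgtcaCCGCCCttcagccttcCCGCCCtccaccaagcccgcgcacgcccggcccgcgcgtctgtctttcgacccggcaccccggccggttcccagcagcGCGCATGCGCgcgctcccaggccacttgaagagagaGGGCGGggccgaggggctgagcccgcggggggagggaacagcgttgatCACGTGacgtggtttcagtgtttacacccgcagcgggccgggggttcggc
CYFIP1: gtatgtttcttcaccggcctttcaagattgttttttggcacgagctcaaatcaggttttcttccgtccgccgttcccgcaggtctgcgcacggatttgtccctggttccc
G3BP1: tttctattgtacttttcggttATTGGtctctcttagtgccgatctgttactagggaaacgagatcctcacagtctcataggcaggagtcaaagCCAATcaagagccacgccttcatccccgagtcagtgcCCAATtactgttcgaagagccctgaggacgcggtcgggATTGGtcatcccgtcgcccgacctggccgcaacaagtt
CAPRIN1: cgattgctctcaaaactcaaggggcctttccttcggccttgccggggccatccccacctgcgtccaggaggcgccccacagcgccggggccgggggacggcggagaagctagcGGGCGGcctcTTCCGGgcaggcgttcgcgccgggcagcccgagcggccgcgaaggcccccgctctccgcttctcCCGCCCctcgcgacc
The RefSeq starts of G3BP1 and CYFIP1 lie 909 and 165 bases inside the genes as annotated by GENCODE. The stretches printed for G3BP1 and CYFIP1 therefore lie within the GENCODE spans of these genes. In the full window of 250 bases, FMR1 had 1 match to the NRF1 palindrome, 1 E-box and 3 GC boxes. Of 35116 RefSeq promoter windows of that length, 1.03% held the NRF1 palindrome, 6.34% the E-box and 42.6% the GC box. Among the 10 members, G3BP2 was the other gene whose window held both the palindrome and the E-box. The G3BP1 window held 4 CCAAT boxes, a motif found in 32% of windows. CYFIP1 held none of the 5 motifs, and CAPRIN1 held 2 GC boxes and 1 ETS core, a motif present in 14.5% of windows. GC content was 72.4% for FMR1, 74% for CAPRIN1, 55.6% for CYFIP1 and 54% for G3BP1, against a median of 58% over all windows. The count data do not measure binding at any of these letters.

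Levels of different genes were compared per kilobase of merged exon, as wild-type CPM (counts scaled to the library total) per kb over 6 libraries. CAPRIN1 was the most abundant at 65.8 ± 3.5 (SD, n = 6), followed by G3BP2 at 35.3 ± 2.07, FXR2 at 28.1 ± 1.12 and G3BP1 at 19 ± 0.787. These 4 did not overlap with each other or with any other member. CYFIP1 at 15.2 ± 0.223, FXR1 at 14.3 ± 0.582 and CYFIP2 at 12.8 ± 0.611 formed the middle of the order, and the wild-type ranges of CYFIP1 and FXR1, and of FXR1 and CYFIP2, overlapped. NUFIP2 stood at 6.62 ± 0.648 and NUFIP1 at 5.31 ± 0.514, also with overlapping ranges. FMR1 was the lowest of the 10 even in wild type, at 4.23 ± 0.243, with a highest library of 4.7 against a lowest NUFIP1 library of 4.72. Merged exon length counts exons that a cell may not use, so the per-kb order depends on the annotation.

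**Figure D1:**
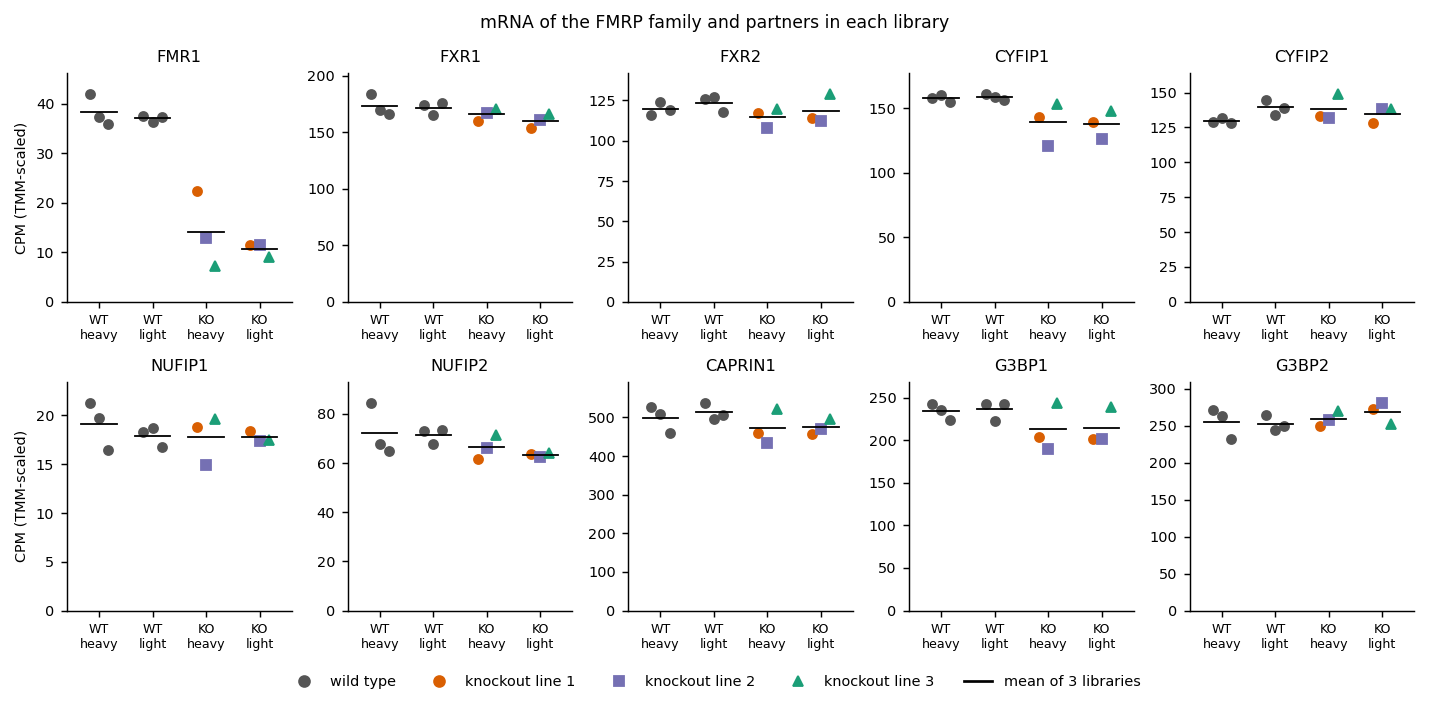
CPM of each member in each of the 12 libraries (vertical axis, linear from 0) by group (horizontal axis: wild type, WT, and knockout, KO, in heavy and light medium); points are libraries, knockout lines differ in colour and shape, and bars are the means of 3 libraries. FMR1 and CYFIP1 are the members whose 6 knockout points all lie below the wild-type points.

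FMR1, the targeted gene (ENSG00000102081.14, plus strand of chromosome X from 147911951 to 147951125 in GRCh38), was lower in every knockout library but was not absent from any. Wild-type libraries in heavy medium had 42, 37.3 and 35.9 CPM and those in light medium 37.5, 36.4 and 37.3 CPM. In the heavy and then the light library, FMR1 stood at 22.4 and 11.4 CPM for line 1, at 12.8 and 11.5 CPM for line 2, and at 7.19 and 9.05 CPM for line 3. The groups did not overlap, and line 1 in heavy medium was the highest of the knockout libraries. As a share of the wild-type mean in the same medium, FMR1 mRNA in heavy medium was 58.3% in line 1, 33.4% in line 2 and 18.7% in line 3. In light medium these shares were 30.7%, 31% and 24.4%. Reads were counted per gene, so these levels do not show whether the transcripts that remained carry the edit or encode protein. In bulk RNA, fewer cells with the transcript and less of it per cell cannot be told apart.

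Over both media the FMR1 log2 fold change was -1.62 (SE 0.217, interval -2.10 to -1.14, edgeR adjusted p = 0.00131), which is 3.07-fold lower, in 6 of 6 knockout libraries. Line by line it was -1.18 (SE 0.188, adjusted p = 0.000924) in line 1, -1.64 (SE 0.198, adjusted p = 6.94e-05) in line 2 and -2.20 (SE 0.207, adjusted p = 0.000162) in line 3. The test of the difference among the 3 lines did not pass (adjusted p = 0.239), and it passed with DESeq2, with no filter on low counts and without either line 1 library. In light medium the change was -1.81 (SE 0.103, adjusted p = 0.000404). In heavy medium it was -1.44 (SE 0.403) and missed the threshold (adjusted p = 0.18), and it passed there with DESeq2 (adjusted p = 0.0347) and without line 3 (-1.13, adjusted p = 0.0321). FMR1 in line 1 was 1.96 times as high in heavy as in light medium, against 1.11 times in line 2 and 0.794 times in line 3. That library also stood nearer the wild type over other genes. The median absolute log2 difference from wild type over the 4135 genes called was 0.29 for the heavy and 0.49 for the light library of line 1, 0.54 and 0.53 for line 2, and 0.22 and 0.18 for line 3. Whether the line 1 heavy library holds some wild-type cells or RNA was not tested. Without the line 1 heavy library, the FMR1 change over both media was -1.86 (adjusted p = 8.55e-06).

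Transcripts that share the FMR1 locus or the name of a member carried almost no reads. The antisense gene FMR1-AS1 had 4 reads over all 12 libraries, the intronic FMR1-IT1 had 75 and FMR1NB had 1. The pseudogene NUFIP1P1 had 3.

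The paralogs FXR1 and FXR2 were not called in either direction over both media. FXR1 (chromosome 3) in wild type had 184, 170 and 166 CPM in heavy and 174, 165 and 176 CPM in light medium. In heavy medium it had 160, 167 and 171 CPM in lines 1 to 3, and in light medium 154, 161 and 166 CPM, so that 3 knockout libraries lay below the lowest wild-type library and none above the highest. Its change was -0.08 (SE 0.0395, interval -0.16 to 0.01, adjusted p = 0.16). FXR2 (chromosome 17) in wild type had 116, 124 and 119 CPM in heavy and 126, 127 and 118 CPM in light medium. The knockout lines had 117, 108 and 120 CPM in heavy and 114, 112 and 129 CPM in light medium, and the groups overlapped. The FXR2 change was -0.06 (SE 0.0462, interval -0.16 to 0.04, adjusted p = 0.348). Neither interval reached above 0.04 on the log2 scale over both media. The fit treated the 2 libraries of a line as separate, so these intervals do not measure the spread between lines. For line 3 alone the upper ends were 0.075 (FXR1) and 0.145 (FXR2). In line 2 alone FXR2 was lower by the test, at -0.15 (SE 0.0528, adjusted p = 0.0311). That call was lost without either line 2 library (adjusted p = 0.186 without heavy, 0.113 without light) and without wild-type light library 1 or 2 (adjusted p = 0.0515 and 0.063), and also with no filter (adjusted p = 0.0663). FXR2 shares 192 exon bases with MPDU1 on the other strand.

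CYFIP1 (ENSG00000273749.4, minus strand of chromosome 15 from 22867052 to 22981063 in GRCh38) was the other member that fell over both media. Wild-type libraries had 158, 160 and 155 CPM in heavy and 161, 159 and 156 CPM in light medium. The heavy and light libraries of line 1 had 143 and 139 CPM, those of line 2 121 and 126 CPM, and those of line 3 153 and 148 CPM. All 6 knockout libraries were below all 6 wild-type libraries, narrowly in line 3. The change was -0.19 (SE 0.0548, interval -0.31 to -0.07, adjusted p = 0.0228), or 1.14-fold lower. By line, CYFIP1 fell in line 1 (-0.17, SE 0.0475, adjusted p = 0.014) and in line 2 (-0.36, SE 0.0483, adjusted p = 1.01e-05), and in line 3 the value was -0.07 (SE 0.0473, adjusted p = 0.459). The difference among the lines missed the threshold (adjusted p = 0.0561). The call over both media was lost on counts summed per line (-0.20, adjusted p = 0.141), without line 1 (-0.21, adjusted p = 0.0542), without line 2 (-0.12, adjusted p = 0.066) and without the line 2 light library (-0.17, adjusted p = 0.0542). The line 1 call was lost without its light library (-0.14, adjusted p = 0.242) and with no filter (-0.16, adjusted p = 0.054).

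Its paralog CYFIP2 (chromosome 5) was not called. Wild-type libraries had 129, 132 and 128 CPM in heavy and 145, 134 and 139 CPM in light medium. The lines had 133, 132 and 149 CPM in heavy and 128, 138 and 138 CPM in light medium, and the groups overlapped. The CYFIP2 change was 0.02 (SE 0.0456, interval -0.08 to 0.12, adjusted p = 0.754), and its sign turned without line 3.

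The genes next to CYFIP1 on chromosome 15 did not fall. NIPA2, which shares 1333 exon bases with CYFIP1 on the opposite strand, had a change of 0.05 (SE 0.0434, adjusted p = 0.439), and TUBGCP5 had -0.02 (SE 0.0557, adjusted p = 0.815). NIPA1 rose, at 0.32 (SE 0.0866, adjusted p = 0.0194). It had 53.6 to 62.2 CPM in wild type, 65.5 and 76.7 CPM for line 1 (heavy, then light), 83.8 and 82.8 CPM for line 2, and 61.8 and 60.2 CPM for line 3, so that line 3 lay inside the wild-type range. NIPA1 and NIPA2 encode magnesium transporters and TUBGCP5 a part of the gamma-tubulin complex. Since the strand setting of the counting is not given, reads in the shared exon of CYFIP1 and NIPA2 could have been counted for either gene or for none.

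The granule gene G3BP1 differed among the lines, with the lowest levels in lines 1 and 2. G3BP1 (ENSG00000145907.14, plus strand of chromosome 5 from 151771045 to 151812785 in GRCh38) had 243, 235 and 224 CPM in wild-type heavy and 243, 223 and 243 CPM in wild-type light libraries. With heavy before light, line 1 stood at 204 and 201 CPM, line 2 at 190 and 202 CPM, and line 3 at 244 and 239 CPM. Lines 1 and 2 lay below every wild-type library, and line 3 lay at the top of the wild-type range. G3BP1 fell in line 1 (-0.22, SE 0.0526, adjusted p = 0.00474) and in line 2 (-0.26, SE 0.0529, adjusted p = 0.000535), whereas line 3 had 0.04 (SE 0.0518, adjusted p = 0.735). G3BP1 was the member for which the test among the 3 lines passed (adjusted p = 0.0317), and that call was lost without any single library of line 2 or of line 3 (adjusted p = 0.0897 to 0.228). Without the line 1 light library the line 1 value was -0.19 (adjusted p = 0.114). Over both media its change was -0.14 (SE 0.0632, adjusted p = 0.118), and without line 3 it was -0.24 (adjusted p = 0.000332).

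CAPRIN1 (chromosome 11) had 527, 509 and 461 CPM in wild-type heavy and 538, 495 and 507 CPM in wild-type light libraries. Line 1 stood at 460 and 457 CPM, line 2 at 434 and 470 CPM, and line 3 at 522 and 495 CPM, heavy before light. The groups overlapped, with the line 1 libraries and the line 2 heavy library below the wild-type range. CAPRIN1 fell in line 2 (-0.16, SE 0.0571, adjusted p = 0.0275), and the values were -0.14 (SE 0.0569, adjusted p = 0.0702) in line 1 and 0.01 (SE 0.0564, adjusted p = 0.965) in line 3. The line 2 call was lost without its heavy library (-0.11, adjusted p = 0.337) and without wild-type light library 1 (-0.15, adjusted p = 0.0502). The test among the 3 lines did not pass for CAPRIN1 (adjusted p = 0.283). Over both media CAPRIN1 had -0.10 (SE 0.0508, adjusted p = 0.171), and without line 3 it had -0.15 (adjusted p = 0.0123).

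G3BP2 (chromosome 4), the paralog of G3BP1, had 271, 263 and 232 CPM in wild-type heavy and 265, 244 and 249 CPM in wild-type light libraries. The lines had 249, 258 and 270 CPM in heavy and 273, 281 and 252 CPM in light medium. The groups overlapped, and 2 knockout libraries exceeded the wild-type range. Its change was 0.06 (SE 0.0479, interval -0.05 to 0.16, adjusted p = 0.416).

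NUFIP1 (chromosome 13) had 21.3, 19.7 and 16.5 CPM in wild-type heavy and 18.3, 18.7 and 16.8 CPM in wild-type light libraries. The lines had 18.8, 14.9 and 19.6 CPM in heavy and 18.4, 17.4 and 17.5 CPM in light medium. The groups overlapped, and the change was -0.06 (SE 0.0795, interval -0.23 to 0.11, adjusted p = 0.6). NUFIP2 (chromosome 17) had 84.5, 67.7 and 64.9 CPM in wild-type heavy and 72.9, 67.6 and 73.3 CPM in wild-type light libraries. The lines had 61.8, 66.1 and 71.3 CPM in heavy and 63.6, 62.3 and 64.1 CPM in light medium. Of the 6 knockout libraries, 4 lay below the lowest wild-type library. The NUFIP2 change was -0.15 (SE 0.0623, interval -0.28 to -0.01, adjusted p = 0.097), and it passed without wild-type heavy library 3 (adjusted p = 0.0421), without the line 3 heavy library (adjusted p = 0.0415) and without line 3 (adjusted p = 0.0354).

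Over both media 24.8% of the 16704 genes tested were called by edgeR at an adjusted p under 0.05, 9.78% as lower and 15% as higher. Of the 10 members 2 were called, FMR1 and CYFIP1, both as lower. Apart from the targeted gene this was 1 of 9, a share near that of all genes called lower. Higher calls among members over both media numbered 0 with edgeR, DESeq2 and limma-voom, and 0 at an unadjusted edgeR p under 0.05, at which 4 members were lower and 39.2% of all genes passed. For 2 members all 6 knockout libraries lay below the wild-type libraries grown in the same medium, against 5.47% of all genes. The median change was -0.09 over the 10 members and 0.003 over all genes.

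**Figure D2:**
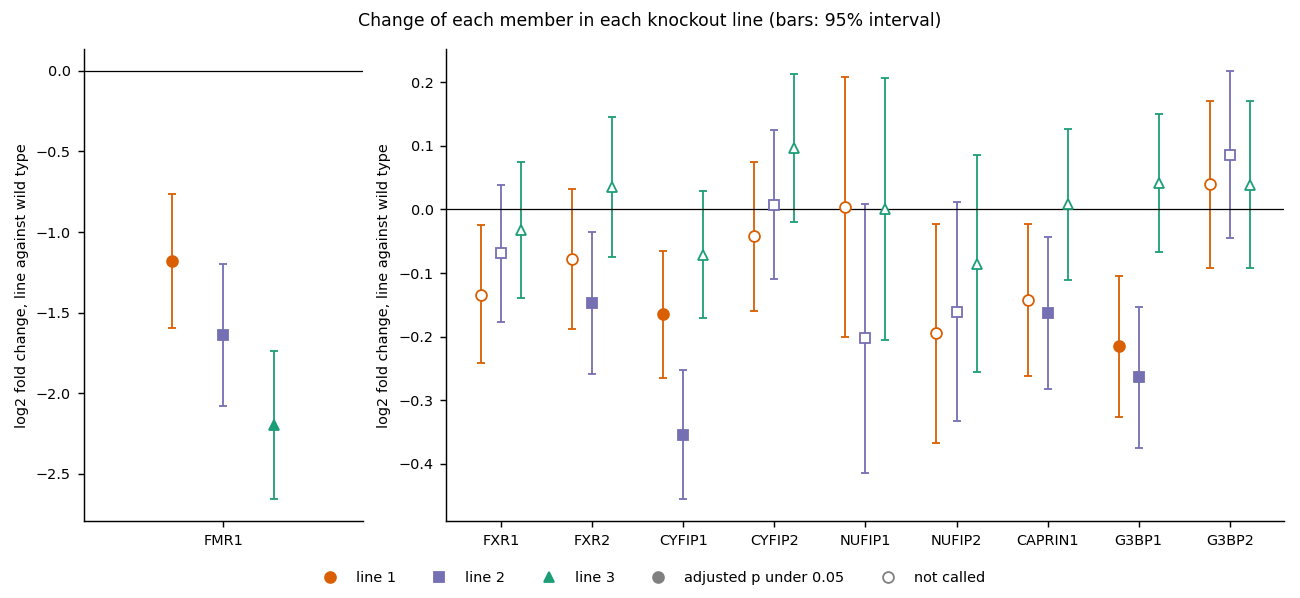
Log2 fold change of each member in each knockout line against the 6 wild-type libraries (vertical axis; FMR1 has a scale of its own on the left); bars are 95% intervals and filled symbols passed an adjusted p under 0.05. The line 2 symbols of FXR2, CYFIP1, CAPRIN1 and G3BP1 are filled and below 0, while line 3 has a filled symbol for FMR1 alone.

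The 3 line comparisons share the same 6 wild-type libraries, so they are given side by side. In line 1, 28.2% of all genes were called, 12.8% as lower, and 3 members fell: FMR1, CYFIP1 and G3BP1. FXR1 missed the threshold in line 1 (-0.13, SE 0.0515, adjusted p = 0.0606) and was called there with DESeq2, with RLE factors and with the filter of 1 CPM. Without wild-type heavy library 3 the members lower in line 1 numbered 6 (FMR1, FXR1, CYFIP1, NUFIP2, CAPRIN1 and G3BP1), with 4926 of all genes called. Without the line 1 light library FMR1 was the 1 left, with 1538 of all genes called. In line 2, 43% of genes were called, 20.1% as lower, and 5 members fell: FMR1, FXR2, CYFIP1, CAPRIN1 and G3BP1. Leaving out 1 library gave 3 to 7 lower members there, and 4200 to 7456 calls over all genes. In line 3, 5% of genes were called, 1.73% as lower, and FMR1 was the member that fell. Line 3 had the lowest FMR1 mRNA and the fewest other calls, among members and among all genes. The FMR1 difference among the lines did not pass (edgeR adjusted p = 0.239). Whether FMR1 level and the number of calls are related was not tested. Among the lines 12.7% of genes differed, and so did 1 member, G3BP1. DESeq2 called FMR1 and G3BP1 there. With no filter, or without either line 1 library, FMR1, CYFIP1 and G3BP1 were called, with 3411 to 3628 calls over all genes. Without any single library of line 2 or line 3 the number of members was 0, with 228 to 1327 calls over all genes. Leaving out line 3 gave 6 lower members over both media (FMR1, FXR2, CYFIP1, NUFIP2, CAPRIN1 and G3BP1), while leaving out line 1 or line 2 left FMR1 alone. Calls over all genes moved as well: 7415 of 16990 genes without line 3, 3489 of them lower, 2327 of 16782 without line 1 and 1710 of 16816 without line 2.

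Within heavy medium 0.112% of genes were called and 0 members by edgeR; FMR1 was the 1 member with an unadjusted p under 0.05 there, against 17.9% of genes, and was called by DESeq2 and not by limma-voom. Within light medium 1.44% of genes were called, and FMR1 was the 1 member among them. Without the line 3 light library, 6240 genes were called in light medium in place of 231, and 6 members with them: FMR1, CYFIP1, NUFIP2, CAPRIN1 and G3BP1 as lower and G3BP2 as higher. In CYFIP1 the change was -0.19 (SE 0.0897, adjusted p = 0.311) in heavy and -0.21 (SE 0.0664, adjusted p = 0.119) in light medium. Heavy against light medium gave 0 calls among the 16704 genes with edgeR, DESeq2 and limma-voom (0%), with 531 genes (3.18%) and 0 members at an unadjusted edgeR p under 0.05. The widest medium value of a member was that of FMR1, at 0.22 (SE 0.213, interval -0.25 to 0.69). The interaction of genotype and medium likewise gave 0 calls with these tools (0%), with 149 genes (0.892%) and 0 members at an unadjusted p under 0.05.

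**Figure D3:**
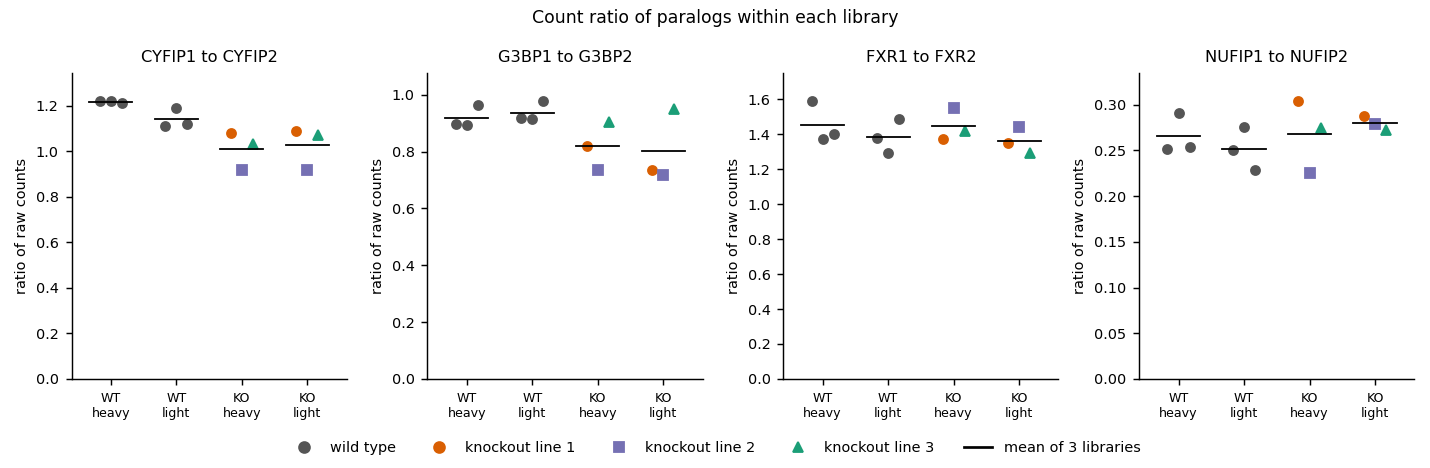
Ratio of the raw counts of paired members within each library (vertical axis, from 0) by group (horizontal axis). The pairs are paralogs, except NUFIP1 and NUFIP2, which are paired by name. Points are libraries, and bars are means of 3. The 6 knockout ratios of CYFIP1 to CYFIP2 lie between 0.915 and 1.09, below the wild-type ratios of 1.11 to 1.22.

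Ratios of raw counts within a library do not depend on the scaling between libraries. The ratio of CYFIP1 to CYFIP2 was 1.18 ± 0.0497 (SD, n = 6) in wild type, with a range of 1.11 to 1.22, and 1.02 ± 0.0801 (SD, n = 6) in knockout. It was 1.08 and 1.09 for line 1, 0.917 and 0.915 for line 2, and 1.03 and 1.07 for line 3, so that all 3 lines lay below the wild type. The ratio of G3BP1 to G3BP2 was 0.893 to 0.978 in wild type, 0.735 to 0.821 in line 1, 0.718 to 0.735 in line 2 and 0.905 to 0.951 in line 3. Here lines 1 and 2 were below the wild type and line 3 within its range. The ratio of FMR1 to FXR1 fell from between 0.212 and 0.229 in wild type to between 0.0421 and 0.14 in knockout. The ratio of FXR1 to FXR2 overlapped between genotypes, at 1.29 to 1.59 in wild type and 1.29 to 1.55 in knockout, as did that of NUFIP1 to NUFIP2, at 0.229 to 0.291 and 0.225 to 0.304. These ratios were not tested.

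**Figure D4:**
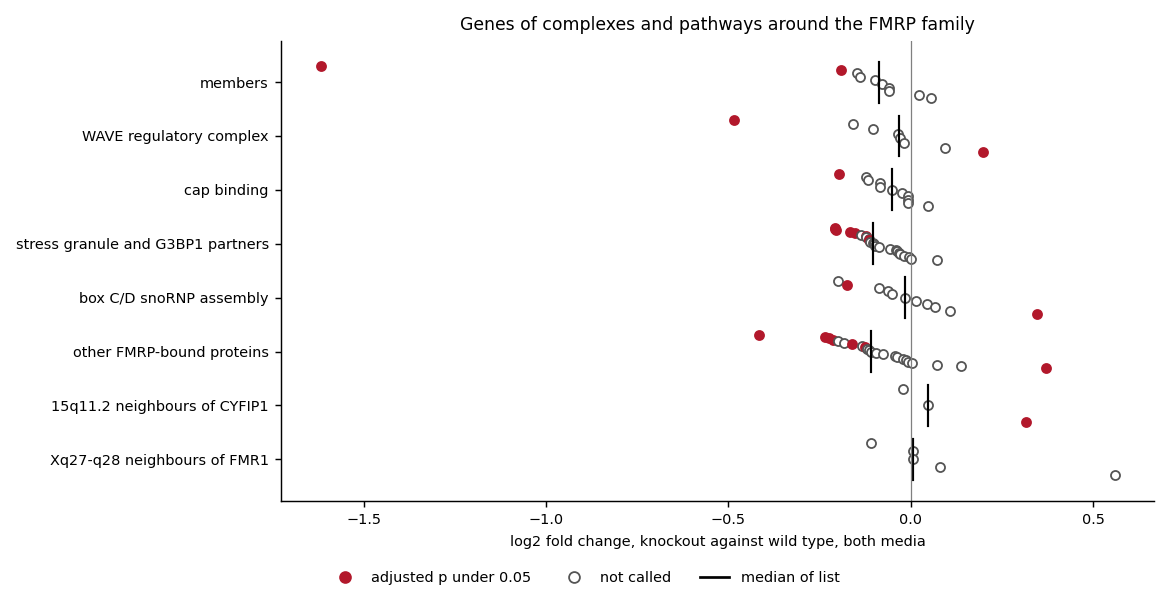
Log2 fold change over both media (horizontal axis) of each tested gene in the lists of complexes and neighbours (vertical axis); red points passed an adjusted p under 0.05, and black bars are list medians. In the stress granule list the 7 red points all lie below 0.

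Genes of the complexes in which the members work were counted next. In the stress granule list, which holds partners of G3BP1 and other granule proteins, 7 of 24 tested genes fell over both media and 0 rose, with a list median of -0.10. At an unadjusted edgeR p under 0.05, 13 fell and 0 rose; DESeq2 called 10 lower and 0 higher, and limma-voom 7 and 0. Of all genes, 24.8% were called and 9.78% were called lower, and 39.2% had an unadjusted p under 0.05. Those that fell included PRRC2B (-0.21, SE 0.0373, adjusted p = 0.00291), PRRC2C (-0.17, SE 0.0475, adjusted p = 0.0218) and the RNA helicase gene DDX3X (-0.12, SE 0.0355, adjusted p = 0.0236). PRRC2B had 371 to 415 CPM in the wild-type libraries, 355 and 352 CPM in line 1, 334 and 328 CPM for line 2 and 332 and 352 CPM for line 3. PRRC2B was thus below the wild-type range in every knockout library. Lines 1, 2 and 3 had 4, 13 and 1 genes of this list lower and 0 higher, beside 12.8%, 20.1% and 1.73% of all genes called lower in those lines.

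Among other proteins reported to bind FMRP, 6 of 23 tested genes fell and 1 rose, with a median of -0.11, beside 9.78% of all genes called lower and 15% higher. DICER1, which cuts microRNA precursors, had the largest fall, -0.42 (SE 0.0472, adjusted p = 0.000226). It had 75.6 to 90 CPM in wild type, 62 and 59.7 CPM in line 1, 60 and 54.9 CPM for line 2 and 61.6 and 60.9 CPM for line 3, so the 3 lines were alike in being below every wild-type library. PURB (-0.22, SE 0.0467, adjusted p = 0.00566), AGO2 (-0.23, SE 0.0496, adjusted p = 0.00603) and PURA (-0.21, SE 0.0503, adjusted p = 0.0101) also fell; PURA and PURB bind single-stranded nucleic acids and AGO2 is the microRNA effector. The helicase gene MOV10 was the 1 that rose, at 0.37 (SE 0.108, adjusted p = 0.026). In this list 6, 13 and 1 genes were lower in lines 1, 2 and 3, and 2, 2 and 0 were higher; of all genes 28.2%, 43% and 5% were called in those lines.

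CYFIP proteins work in the WAVE regulatory complex. Of 8 tested genes in the list of its subunits and RAC1, the small subunit BRK1 rose (0.20, SE 0.0488, adjusted p = 0.0119) and WASF3 fell (-0.49, SE 0.11, adjusted p = 0.00981), with a median of -0.03. These 2 of 8 stand beside 24.8% of all genes called, and DESeq2 called 3, of which 1 rose and 2 fell. WASF3 had 70.5 to 80.4 CPM in wild type, 55.3 and 47.6 CPM in line 1, 44.4 and 45.5 CPM for line 2 and 70.5 and 65.3 CPM for line 3. NCKAP1, the direct partner of CYFIP1 in that complex, had a change of 0.10 (SE 0.0575, adjusted p = 0.238). Of 11 genes of cap binding, EIF4EBP2, a translational repressor that binds eIF4E, was the 1 that fell (-0.20, SE 0.0601, adjusted p = 0.0296) and 0 rose, also with DESeq2, with limma-voom and at an unadjusted p. EIF4E itself had -0.05 (SE 0.0486, adjusted p = 0.458). Of 11 genes of box C/D assembly, with which NUFIP1 works, TAF9, which also encodes a TFIID subunit, rose (0.35, SE 0.0535, adjusted p = 0.00126) and NOP58, a core protein of these particles, fell (-0.17, SE 0.0464, adjusted p = 0.0167). TAF9 had 53.1 to 57.7 CPM in wild type, and the knockout lines had 68.9, 73.1 and 62.8 CPM in heavy and 74.3, 76.9 and 64.5 CPM in light medium, above every wild-type library.

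Around FMR1 itself, 27 genes with a start within 5 Mb passed the filter, all downstream of it. The nearest, IDS, starts 1565 kb away. Of the 27 genes 7 rose and 2 fell, with a median of 0.23. The 27 include RF00017, which was not called (adjusted p = 0.654). That symbol is also annotated on chromosome 5, so its reads cannot be placed in this region. Of all genes tested, 15% were called higher and 9.78% lower over both media. CD99L2 rose (0.30, SE 0.067, adjusted p = 0.00766), as did GABRA3 (1.15, SE 0.307, adjusted p = 0.0221), a GABA receptor subunit gene, while HMGB3 fell (-0.34, SE 0.0955, adjusted p = 0.0229). MAGEA10, a cancer-testis antigen gene, rose from a mean of 0.145 CPM (wild type) to 26.5 CPM (knockout) (7.46, SE 1.5, adjusted p = 0.00884). Its SE is wide, and its values by line are not given here. Relatives such as MAGEA3 and MAGEA12 lie in this region, and how reads matching more than 1 gene were treated is not stated. Of the X chromosome neighbours listed by name 5 were tested. Over both media 0 were called by edgeR, DESeq2 or limma-voom, also at an unadjusted p under 0.05. The smallest p was that of MTMR1 (-0.11, SE 0.0629, adjusted p = 0.214). In line 2 alone 1 of the 5 was called higher and 1 lower, beside 22.9% and 20.1% of all genes, and in lines 1 and 3 0 were called.

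The genes whose log2 CPM followed FMR1 most closely over the 12 libraries, among 12418 candidates, were IGF1R (Pearson r = 0.971), RNF212 (0.966), MPRIP (0.965), EFNA5 (0.959) and PDE4B (0.953). These r values describe 12 libraries that fall into 2 genotypes and share their lines, and any gene lower in knockout gains from that split. The wild-type and the knockout means in CPM were 73.3 and 56.2 for IGF1R, a growth factor receptor gene, 8.76 and 2.32 for RNF212, 256 and 233 for MPRIP, 41.6 and 30 for EFNA5, and 47.7 and 34.9 for PDE4B. For NUFIP1, the member with the next widest range, GTF2B (0.875), TRIM26 (0.873) and TCAIM (0.868) came closest.

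Markers of sympathetic neuroblastoma moved with the lines in the same order as G3BP1 and CYFIP1. All 10 were detected, and their summed level was 8500 to 9480 CPM in wild type, 7410 to 7980 in line 1, 6420 to 6790 in line 2 and 8240 to 8720 in line 3. DBH and GATA3 fell over both media; TH was near 0, with a mean of 0.616 CPM in wild type. The 7 mesenchymal markers summed to 69.5 to 75.3 CPM in wild type and 67.4 to 80.1 CPM in knockout, with PRRX1 and TWIST2 at 0. Within that list VIM rose from 22 ± 1.62 CPM (SD, n = 6) to 49.7 ± 16.7 (SD, n = 6). The matrix genes of the list were not called over both media by edgeR, at -1.01 for COL1A1, -1.30 for COL1A2, -0.87 for COL3A1 and -1.18 for FN1. DESeq2 called 2 genes of the list lower and 1 higher, and limma-voom 3 lower and 1 higher. By line, 3 of this list fell in line 1, 4 in line 2 and 0 in line 3, and 1 rose in each line. Of all genes, 12.8%, 20.1% and 1.73% were called lower in those lines, and 15.4%, 22.9% and 3.27% higher. Immune markers summed to at most 0.193 CPM, with PTPRC and CD3E at 0. Endothelial markers reached at most 0.0846 CPM. The 5 epithelial markers summed to 2.1 to 3.13 CPM in wild type and 2.71 to 5.6 in knockout, and the 5 Schwann or glial markers to 1.39 to 2.33 and 1.27 to 4.17, with SOX10 and GFAP at 0. Mitochondrial genes took 9.53% to 10.5% of counts in the 6 wild-type libraries and 10.9% to 12.2% in the 6 knockout libraries, without overlap. The part of these shifts in the values of the members was not tested.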

How the data were processed

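The authors deposited raw counts of reads per gene, and these counts were used as deposited. Per the submitters' processing notes, bcl2fastq 2.19.0, STAR 2.7.0f, GRCh38.p13, featureCounts of Subread 1.6.4, DESeq2 1.22.1 and R 3.5.1 were used. Per the labels' protocols, the libraries were made with a stranded mRNA kit. Which annotation was counted, whether strand was used, and how reads matching more than 1 gene were treated remained unstated in those sources.

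Counts were tested with edgeR 4.0.16 in R 4.3.3, with TMM normalisation, filterByExpr, robust quasi-likelihood F tests and Benjamini-Hochberg adjustment over all genes tested, at 0.05. Every adjusted p is from this test unless another tool is named. CPM values are counts scaled to the TMM-adjusted library total, with SD over libraries. Standard errors (SE) of log2 fold changes were derived from the F statistic, and intervals cover 95%. The scripts were tested on simulated data.

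Knockout was compared with wild type over both media with medium as a covariate, within each medium, and for each line. The lines, the media and the interaction of genotype and medium were also tested. Alternatives were RLE factors, DESeq2 1.42.0, limma-voom (limma 3.58.1), other filters, left-out libraries and lines, summed lines, and blocks by replicate number or line. Per the labels, the heavy and light libraries of a number come from 1 line. The members and the lists were chosen with earlier results of these data known. Besides the members, up to 4 genes with the smallest p among those called over both media were named per list and near FMR1, or the gene with the smallest p where none was called. A gene that this rule picked is not reported here. For likeness, the 5 genes with the highest correlation with FMR1 and the 3 with the member of next widest range were named. Gene positions and merged exon lengths came from GENCODE release 29, and promoter sequences from RefSeq on GRCh38.p14, which held all 10 members. Depth was 25935152 to 40257027 counts per library.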

Additional observations from a re-analysis of the deposited data

Results flagged for a closer look

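FMR1 in wild type had 1 library, heavy 1 at 42 CPM, whose distance to the next library took 0.733 of the whole range of the 6 wild-type libraries. FMR1 in knockout likewise had 1 library apart, line 1 in heavy medium at 22.4 CPM, with 0.631 of the range of the 6 knockout libraries. Both ratios exceed the Dixon critical value at the 95% level for 6 samples, which chance passes in about 1 of 20 groups, and 20 such groups were looked at. G3BP1 differed among the 3 knockout lines by edgeR's test of the difference itself (adjusted p = 0.0317), with means of 202, 196 and 242 CPM in lines 1 to 3.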

How the results depend on the processing

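FMR1 was lower over both media in all 23 alternatives, from -1.90 to -1.39 with adjusted p up to 0.0479, and CYFIP1 passed in 19 of 23. CYFIP2 over both media ranged from -0.019 (without the line 3 heavy library) to 0.044 as single libraries were left out, and was -0.017 without line 3. Over both media 4135 genes were called, against 2327, 1710 and 7415 without line 1, 2 or 3 and 272 on counts summed per line. In heavy medium 18 became 775 with no filter, 9 with at least 1 CPM in 3 libraries, 2 with limma-voom, 809 with DESeq2 and 99 with 1 spread from all 12 libraries. In light medium 231 became 1351 with no filter, 91 with limma-voom, 1724 with DESeq2 and 616 with 1 spread. With no filter, line 3 had 1387 calls against 836, and the lines differed in 3411 genes against 2062. Leaving out each library in turn gave 2632 to 5907 calls over both media, 0 to 2243 in heavy, 4 to 6240 in light medium, 1538 to 4926 in line 1, 4200 to 7456 in line 2, 287 to 1269 in line 3, 228 to 3628 among lines, and 0 to 0 for the medium and for the interaction. The causes were not tested, beyond the fewer samples that a left-out line or library leaves.

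With the replicate number as a block 4484 genes were called, and no call on a member over both media changed. Deviations from the mean of each group of 3 libraries were correlated between libraries. Same-numbered wild-type and knockout libraries correlated between -0.118 and -0.012. Differently numbered pairs across genotypes were not compared, so whether the numbers pair anything across genotypes cannot be told. Heavy and light libraries of a line correlated at 0.089, 0.618 and 0.661 in lines 1 to 3. Both line 1 libraries correlated more with a library of another line. The line 1 light library had 0.408 with line 2 heavy and -0.489 with line 3 heavy. The line 1 heavy library had 0.164 with line 3 light and -0.314 with line 2 light. With the line as a correlated block FMR1 (adjusted p = 0.000842) and CYFIP1 (adjusted p = 0.0271) were called over both media. Each line rests on 2 libraries, and changes under about 0.1 on the log2 scale lie within the intervals of most members.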
